A study of Mus musculus with 278 samples.

Results

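Single cells of the GHA501A library series were compared after culture with or without 4-hydroxy-tamoxifen (4OHT). The cells were those whose column in the deposited table starts with GHA501A and matches a sample title, grouped by the treatment label, and they made up 140 of the 278 labelled cells, 69 treated and 71 untreated. Keratinocytes isolated from adult mouse dorsal skin were co-cultured as 9 parts wild-type (WT) cells and 1 part K14ΔNβ-cateninER cells, so the untreated wells held the transgenic cells too. Treated wells received 200 nM 4OHT for 24 h and untreated wells received DMSO, the solvent. The transgene is driven by a K14 promoter, which is active in basal keratinocytes. The study removed transgenic cells by their transgene reads, and these were not told apart here, so they may be among the 140 cells. The labels gave neither a strain nor the culture from which a cell came, so each treatment was 1 set of cells. No test between treatments was therefore possible, and no p is given. The SD quoted below is the spread between cells of a set, and the 95% intervals of shares (exact, Clopper-Pearson) cover the counting error of cells only. Library numbers were 95 or lower in the treated set and 98 or higher in the untreated set, so that library number and treatment cannot be told apart.

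In canonical Wnt signalling, beta-catenin escapes a cytoplasmic destruction complex and acts with TCF/LEF factors on target genes in the nucleus. In the epidermis the pathway directs stem cell renewal and hair follicle formation. The ΔNβ-cateninER protein lacks the part by which beta-catenin is marked for destruction and is fused to an oestrogen receptor domain that 4OHT releases for entry to the nucleus. Basal keratinocytes are known by the keratin pair Krt14 and Krt5, keratinocytes under stress or in wounds by Krt6a, Krt16 and Krt17, and dermal fibroblasts by collagens such as Col1a1 and Col3a1. The comparison asks which genes differ in cells that shared a well with beta-catenin-activated neighbours.

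The promoters of genes described below are given first, because the genes shown were among those past the threshold used here. Each is the RefSeq window from 250 bases before to 50 bases after the start of the gene as given in that table (GRCm38.p6, 5′ to 3′ on the strand of the gene). Krt5 (chr15:101712856-101713155, minus strand) encodes a basal keratin. Sprr1b (chr3:92438730-92439029, minus strand) and Sprr2h (chr3:92385435-92385734, plus strand) encode precursors of the cornified envelope. Capitals mark matches on either strand to the AP-1 motif TGANTCA or the TCF/LEF core CTTTGA, and the marked matches do not overlap.
Krt5: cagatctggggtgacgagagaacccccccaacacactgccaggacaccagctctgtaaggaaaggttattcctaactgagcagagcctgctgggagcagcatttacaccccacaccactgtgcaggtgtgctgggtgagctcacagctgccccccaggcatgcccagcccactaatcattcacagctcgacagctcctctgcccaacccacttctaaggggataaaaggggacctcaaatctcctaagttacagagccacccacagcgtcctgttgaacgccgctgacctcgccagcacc
Sprr1b: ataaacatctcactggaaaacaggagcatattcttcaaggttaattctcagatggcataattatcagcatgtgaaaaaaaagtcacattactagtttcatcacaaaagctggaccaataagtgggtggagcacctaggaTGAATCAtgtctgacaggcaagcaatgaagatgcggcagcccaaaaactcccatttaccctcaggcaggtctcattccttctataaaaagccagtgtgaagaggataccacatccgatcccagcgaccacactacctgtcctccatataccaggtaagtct
Sprr2h: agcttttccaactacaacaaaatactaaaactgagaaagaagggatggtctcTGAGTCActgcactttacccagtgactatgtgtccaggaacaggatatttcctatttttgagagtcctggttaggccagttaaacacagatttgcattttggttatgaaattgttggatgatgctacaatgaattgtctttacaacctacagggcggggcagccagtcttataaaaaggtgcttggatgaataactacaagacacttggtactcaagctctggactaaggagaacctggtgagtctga
The window of Krt5 held 0 matches to either motif, and those of Sprr1b and Sprr2h held 1 AP-1 match each. Of 32851 RefSeq windows, 7.81% held the AP-1 motif and 16% the TCF/LEF core. Windows were found for 30 of the 42 genes that were higher in treated cells, and 7 of their 38 windows (18.4%) held the AP-1 motif, against 5.41% of the 10905 windows of the genes tested. The genes with those 7 windows were Dmkn (3 windows), Krtdap, Sprr1b, Sprr2h and Trim30a. The Dmkn windows that start at chr7:30763506 and chr7:30763508 overlap almost fully, so windows are not independent of each other. The share by gene was not counted. The TCF/LEF core stood in 4 of the 38 windows (11%), against 11.6% of those of the genes tested. For the 218 genes that were lower, 180 had windows, and the AP-1 motif stood in 4.17% and the TCF/LEF core in 15.3% of them.

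The windows of a pair of metallothionein genes that were lower in treated cells follow. Metallothioneins are small proteins that bind zinc and copper, and Mt4 is the form of stratified squamous epithelia. Mt2 lies at chr8:94172368-94172667 and Mt4 at chr8:94136954-94137253, both on the plus strand. Capitals mark matches on either strand to TGCGCNC, a form of the metal response element. That form stood in 15.4% of all RefSeq windows and in 26% of those of the genes tested.
Mt2: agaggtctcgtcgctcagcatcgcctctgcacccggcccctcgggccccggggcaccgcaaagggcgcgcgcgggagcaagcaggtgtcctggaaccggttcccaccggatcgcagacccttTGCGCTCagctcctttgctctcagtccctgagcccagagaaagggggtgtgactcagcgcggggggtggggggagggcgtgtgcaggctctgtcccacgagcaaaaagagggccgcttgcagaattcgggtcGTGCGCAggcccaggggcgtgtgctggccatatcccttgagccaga
Mt4: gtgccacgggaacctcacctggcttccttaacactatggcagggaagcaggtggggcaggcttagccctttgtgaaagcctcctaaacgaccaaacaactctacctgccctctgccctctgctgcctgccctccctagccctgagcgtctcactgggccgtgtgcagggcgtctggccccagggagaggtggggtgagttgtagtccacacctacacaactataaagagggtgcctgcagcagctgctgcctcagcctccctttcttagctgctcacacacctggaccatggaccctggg
The Mt2 window held 2 matches to this form and the Mt4 window 0. Other forms of the element were not searched, so the windows may hold more of them. A match is a run of letters in these windows, and no factor was measured on them.

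The labelled cell type was checked against 2 marker lists. The 14 measured fibroblast markers had a higher mean log2(TPM + 1) than the 19 measured keratinocyte markers in 120 of the 140 cells, 57 treated and 63 untreated. These cells are called the fibroblast range below, and the others the keratinocyte range. A range is a cut on a score and not a cell type, and 3 cells (2 treated and 1 untreated) lay within 1 of the cut. Col1a1, a fibrillar collagen, was detected at a TPM over 1 in every cell of both sets, with a median TPM of 909 in treated and 1123 in untreated cells. The data thus go against the keratinocyte label for most cells of the series. In the AG library series of the same study, 2 of 130 cells lay in the fibroblast range. Of the markers of other cell types, 0 of 4 endothelial, 2 of 4 immune, 3 of 4 melanocyte, 4 of 6 Schwann cell and 7 of 8 smooth muscle genes in the table were detected often enough to be compared, and 0 of them passed the level threshold given below. That threshold compares treatments and does not tell whether such cells were present. At least 1 marker had a TPM over 1 in 62 treated and 64 untreated cells for immune genes. The numbers were 67 and 70 for melanocyte, 69 and 70 for smooth muscle, 22 and 16 for Schwann cell and 0 and 1 for endothelial genes.

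**Figure D1:**
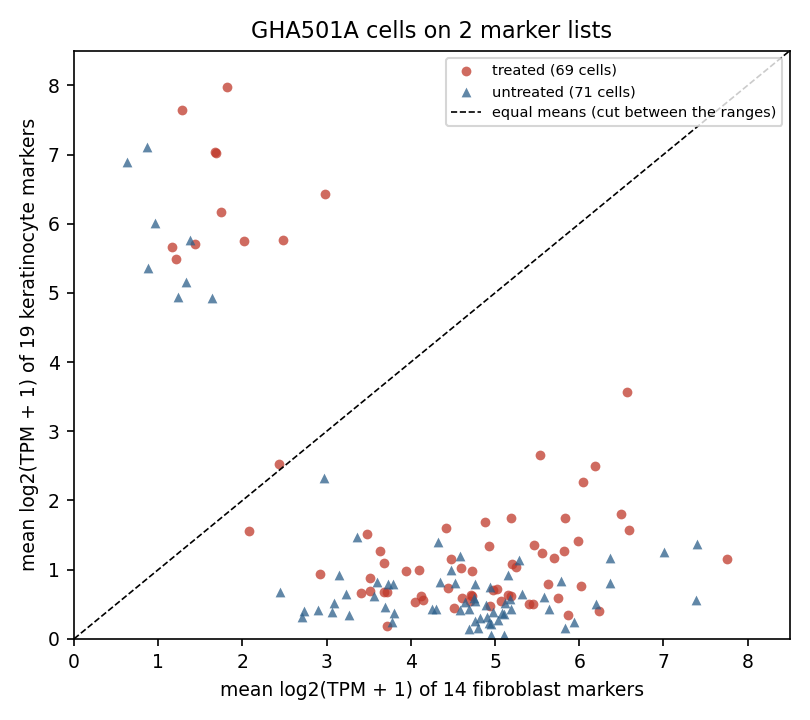
Each point is 1 cell, placed by its mean log2(TPM + 1) over 14 fibroblast markers (horizontal) and 19 keratinocyte markers (vertical). Circles are the 69 treated and triangles the 71 untreated cells. Below the dashed line of equal means lie 57 treated and 63 untreated cells, and above it 12 treated and 8 untreated cells.

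The keratinocyte range held 12 of 69 treated cells (17.4%, interval 9.32% to 28.4%) and 8 of 71 untreated cells (11.3%, interval 4.99% to 21%), so the intervals overlap. Treated cells had fewer genes with a TPM over 1, with a lowest, median and highest number of 4771, 6008 and 7592, against 4927, 6392 and 7572 in untreated cells. The medians differed by 384 genes and the ranges overlap almost fully. TPM values add up to the same total in every cell, so the number of reads behind a value is unknown.

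Of 11090 genes with a TPM over 1 in more than 5 cells, 42 (0.379%) had a mean log2(TPM + 1) that was higher by at least 1 in treated cells, a difference of 2-fold on that scale. A further 218 genes (1.97%) were lower by at least 1, so that 2.34% passed in either direction. With the log2 of the mean TPM in place of the mean of log2 values the split turned, from 16.2% to 64.7% higher among the genes past the threshold, a scale on which the highest cells weigh most. The median difference over all genes was -0.08 on the first scale and 0.08 on the second. The share of cells with a TPM over 1 was at least 20 percentage points higher in treated cells for 57 genes (0.514%) and lower for 239 (2.16%). Of the 42 genes, 23 also passed the share threshold in the same direction, and of the 218 genes 89 did.

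**Figure D2:**
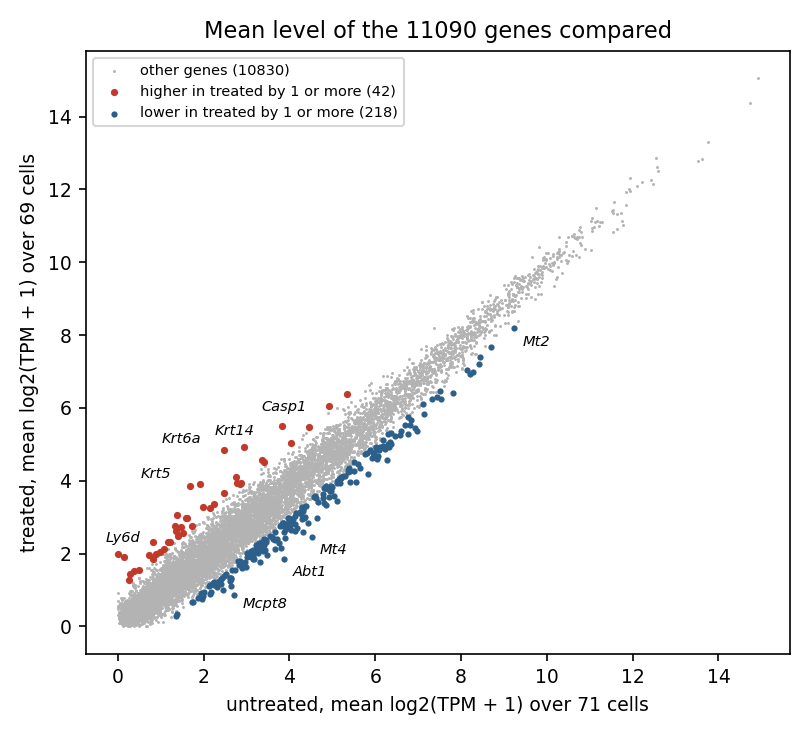
Mean log2(TPM + 1) of each of the 11090 genes over the 71 untreated (horizontal) and 69 treated cells (vertical). The 42 genes higher by 1 or more lie mostly at low levels, and the 218 lower by 1 or more spread from low to high levels.

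Genes of keratinocytes led the differences upward. Krt14 (chr11:100203162-100207548) had a lowest, median and highest TPM of 0, 10.1 and 12671 in treated cells, and of 0, 2.25 and 4376 in untreated cells. It was detected in 91.3% of treated cells (interval 82% to 96.7%) and in 66.2% of untreated cells (54% to 77%), and its mean log2(TPM + 1) was 4.92 ± 3.80 (SD, 69 cells) against 2.93 ± 3.40 (SD, 71 cells). The highest values belonged to the cells of the keratinocyte range in both sets, and the remaining cells overlap at low values.

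Krt5 (chr15:101707070-101712898), the partner of Krt14, had a TPM of 0, 6.79 and 3845 (lowest, median and highest) in treated and of 0, 0 and 2219 in untreated cells. Its detected share was 75.4% against 39.4% and its mean level was higher by 2.17. Krt6a (chr15:101689910-101694307), a keratin of wounded and hyperproliferative epidermis, had the largest difference of the 11090 genes, 2.38, with a TPM of 0, 14.3 and 23829.7 in treated and of 0, 1.53 and 8168 in untreated cells. Both keratins thus ranged from undetected to very high within each set. Krt16, which pairs with Krt6a, was detected in 47.8% against 16.9% of cells and was higher by 1.48. Reads of keratin genes with close copies, such as Krt6a and Krt6b, can be split or lost in counting, and the methods discarded reads that mapped to several places.

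Sfn, or stratifin, an adaptor protein of stratified epithelia, had a TPM of 0, 8.11 and 4432 in treated and of 0, 0 and 2951 in untreated cells. Its detected share was 81.2% (69.9% to 89.6%) against 40.8% (29.3% to 53.2%), and these intervals do not overlap. Ly6d, a surface protein of keratinocytes and other lineages, was detected in 27 of 69 treated cells (39.1%), with a highest TPM of 23838, and in 0 of 71 untreated cells, where a floor of 3 cells allows a share of up to 4.23% and the exact interval reaches 5.06%. Its mean log2(TPM + 1) was 1.99 ± 3.38 (SD) in treated cells. Sprr2h, of the small proline-rich family of the cornified envelope, was detected in 28 treated (40.6%) and 3 untreated cells (4.23%) and was higher by 1.75. Members of that family are close copies of each other, so its level is uncertain. Tmprss11e, a membrane serine protease, was detected in 52.2% against 14.1% of cells, and Epcam, an epithelial adhesion protein, in 55.1% against 31%.

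The keratin difference was also present among cells of the fibroblast range alone. There Krt14 was detected in 51 of 57 treated cells (89.5%) and 39 of 63 untreated cells (61.9%), Krt5 in 70.2% against 31.7%, Krt6a in 86% against 55.6%, and Sfn in 77.2% against 33.3%. The median TPM was low in these cells, 10.4 against 1.27 for Krt6a and 6.59 against 1.89 for Krt14. At least 4 of the 6 genes Krt14, Krt5, Krt6a, Krt16, Krt17 and Sfn were detected in 45 of 57 treated cells (78.9%, interval 66.1% to 88.6%) and in 19 of 63 untreated cells (30.2%, 19.2% to 43%). All 6 were detected in 18 treated and 0 untreated cells. Each of the 6 genes was already higher by at least 1 over all cells, so these joint counts are a description and no separate support. In the keratinocyte range, where every cell expressed them, Krt14 and Krt5 differed by 0.74 and 0.44, and Krt6a and Sfn by -0.30 and -0.21.

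Those low levels were set beside the levels of the keratinocyte range of the same set, leaving out the 3 cells near the cut. Over the 19 keratinocyte markers, the mean TPM in the fibroblast range was a median of 1.19% of the mean in the keratinocyte range in treated cells and 0.540% in untreated cells. The percentage was higher in the treated set for 10 of the 19 markers. It was 1.19% against 0.485% for Krt14, 2.21% against 0.164% for Krt5 and 1.32% against 0.358% for Sfn. For the other 9 markers, among them Itga6 and Dsc3, it was lower in the treated set. Of the stress keratins, which are not among the 19, Krt6a had 0.909% against 0.134%. Krt16 went the other way, with 1.06% in treated against 9.68% in untreated cells. Its mean TPM in the keratinocyte range was 2641 in treated and 47.7 in untreated cells. The treated keratinocyte range also had more cells than the untreated, 12 against 8. The part of these cell numbers in the low values was not tested.

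Genes high in the keratinocyte range were then counted. There were 77 genes with a mean log2(TPM + 1) at least 4 higher in the keratinocyte range than in the fibroblast range, averaged over both treatments. Within the fibroblast range 60 of the 77 (77.9%) were above 0 in treated minus untreated cells, with a median difference of 0.17, against 41.3% of all genes and a median of -0.07. Of the 77 genes 7 were past 1 there (9.09%), against 0.469% of all genes. The 34 genes at least 4 higher in the fibroblast range had a median of 0.01, with 0 past 1 in either direction. Of the 42 genes higher in treated cells, 12 were among the 77, and 0 of the 218 lower ones were. Both sets of genes were chosen on these cells, so their values are a description.

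**Figure D3:**
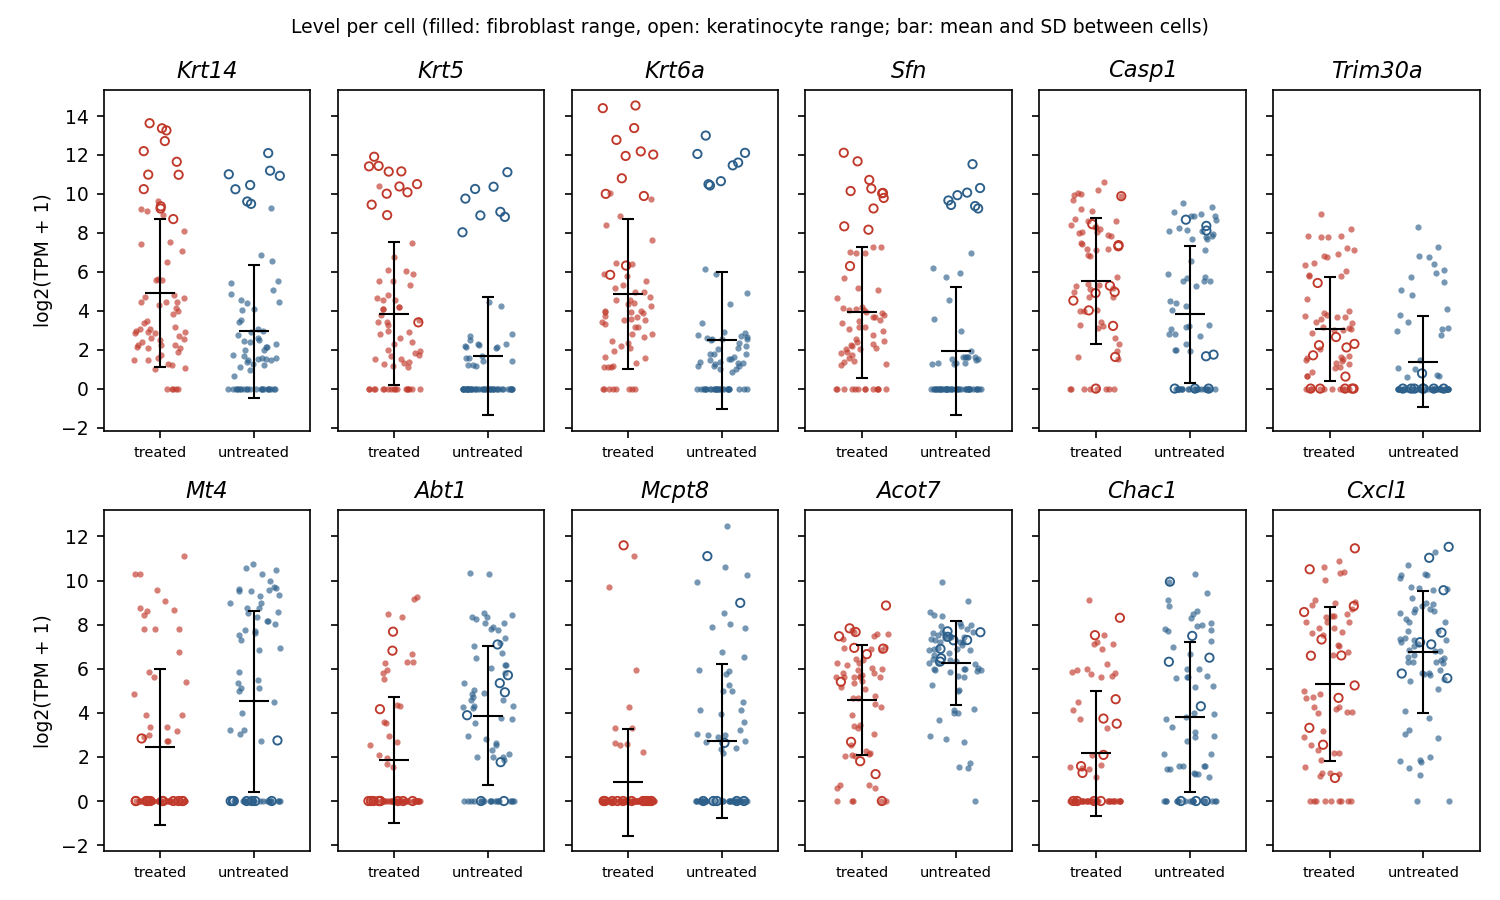
log2(TPM + 1) of 6 genes that were higher (upper row) and 6 that were lower (lower row) in treated cells, with 1 point for each of 69 treated and 71 untreated cells. Filled points are cells of the fibroblast range, open points cells of the keratinocyte range, and bars give the mean and SD between cells. Krt14, Krt5, Krt6a and Sfn show most open points far above most of the others, with some overlap in treated cells, whereas Casp1, Trim30a and the lower row do not.

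Casp1 and Trim30a were higher in treated cells of both ranges. Casp1 (chr9:5298517-5307265), the caspase that processes interleukin-1 cytokines, had a TPM of 0, 39.6 and 1547 in treated and of 0, 7.88 and 741 in untreated cells, and was detected in 87% (76.7% to 93.9%) against 64.8% (52.5% to 75.8%). Its mean was higher by 1.69 over all cells, by 1.74 in the fibroblast range and by 1.56 in the keratinocyte range. Trim30a, an interferon-inducible protein of the tripartite motif family, was detected in 72.5% against 28.2% of cells and was higher by 1.67, 1.85 and 1.32 in the same order. The 17 genes of the interferon list measured with it had a median of -0.02 with 0 past the threshold. The remaining genes of the 15 with the largest differences were Zfp160, a zinc finger protein (1.43), Dync2li1, a chain of the dynein of cilia (1.39), Rnf126, a ubiquitin ligase (1.36), Wfdc2, a secreted protein of epithelia (1.34), Dgka, a diacylglycerol kinase (1.29), and Plcd3, a phospholipase C (1.26). In the fibroblast range all 15 kept their sign and 13 stayed past 1, where 0.487% of all genes were higher by at least 1. The exceptions were Rnf126 and Dgka, with 0.97 and 0.87 there and 3.20 and 2.47 in the keratinocyte range. Most of the cells by which the 15 were picked lie in the fibroblast range, so the counts there are no separate support.

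The gene with the largest difference downward was Mt4, with a TPM of 0, 0 and 2235 (lowest, median and highest) in treated and of 0, 30.5 and 1694 in untreated cells. It was detected in 39.1% of treated (27.6% to 51.6%) and 60.6% of untreated cells (48.3% to 72%), and its mean log2(TPM + 1) was 2.44 ± 3.53 against 4.52 ± 4.11 (SD). The difference was -2.14 in the fibroblast range and -0.11 in the keratinocyte range. In the keratinocyte range Mt4 was detected in 1 of 12 treated and 1 of 8 untreated cells, so -0.11 is a value near the floor. In the fibroblast range it was detected in 45.6% of treated and 66.7% of untreated cells. Abt1, a nuclear protein of basal transcription, had a TPM of 0, 0 and 615 against 0, 17.9 and 1307, was detected in 36.2% (25% to 48.7%) against 71.8% (59.9% to 81.9%), and was lower by a similar amount in both ranges (-2.0 and -2.04). Mcpt8, a serine protease of basophils, was detected in 11 treated (15.9%) and 34 untreated cells (47.9%). Most treated cells held no detected Mt4, Abt1 or Mcpt8, and the treated cells that did overlap the untreated ones.

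Acot7, an acyl-CoA thioesterase, differed in level more than in detection. It had a TPM of 0, 42.1 and 466 in treated and of 0, 112.8 and 965 in untreated cells, with 85.5% against 98.6% of cells detected and a difference of -1.69. Crabp1, which binds retinoic acid, had a median TPM of 0 against 40.1 and a difference of -1.67. Cby1 (chr15:79659199-79667660), which binds beta-catenin and represses its action in the nucleus, had a median TPM of 0 against 29.7, was detected in 46.4% (34.3% to 58.8%) against 70.4% (58.4% to 80.7%) and differed by -1.71. Rpp25l and Pop5 belong to the proteins of ribonuclease P and its relatives and differed by -1.63 and -1.60. Ccs, the copper chaperone of superoxide dismutase, differed by -1.58, and Prl2c2, a proliferin with close copies in the genome, by -1.55. The others of the 15 were Mbip, Chac1, Bloc1s2, Scaper and Stambpl1, between -1.65 and -1.53. All 15 remained past -1 in the fibroblast range, where 2.02% of all genes did. That range holds 120 of the 140 cells by which the 15 were picked, so the count is no separate support.

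By share of cells, large differences downward were those of Zfp433, a zinc finger protein (23.2% against 70.4%, with a difference of -1.38 in mean log2 level and of 0.70 in the log2 of the mean TPM), Prl2c2 (31.9% against 70.4%), Abt1, and Sgo2a, a protector of centromere cohesion (42% against 76.1%). The largest upward were those of Trim30a, Sfn, Ly6d, Tmprss11e and Sprr2h.

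Single genes of the Wnt pathway passed the threshold, where 0.379% of all genes were higher and 1.97% lower. With lists this short, the counts do not set them apart from all genes. Ctnnb1 (chr9:120929216-120960507), which encodes beta-catenin, had a TPM of 0.957, 50.1 and 695 in treated and of 5.38, 61.4 and 272 in untreated cells. Its mean log2(TPM + 1) was 5.60 ± 1.62 against 5.82 ± 1.19 (SD), so the sets overlap almost fully. Reads of the transgene may count towards this gene, so that it does not check the labels. Of 16 beta-catenin target genes 0 passed the threshold in either direction, with a median of -0.06. Among them Lef1, a TCF/LEF factor, differed by 0.29, Ccnd1, a cyclin, by -0.46, Sox9 by -0.42 and Znrf3, a feedback inhibitor of Wnt receptors, by -0.58. Of 13 genes of beta-catenin and its destruction complex, 1 was lower, Fbxw11, a subunit of the ubiquitin ligase that recognises beta-catenin (-1.05). Of 12 Wnt ligands, receptors and inhibitors, 1 was higher, Dkk3, a secreted protein of the Dickkopf family (1.20), detected in 76.8% against 56.3% of cells. The co-receptor Lrp6 differed by 0.48 and the ligand Wnt5a by -0.26.

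Genes that could answer to 4OHT itself were counted beside the 2.34% of all genes past the threshold in either direction. Lists this short cannot be set apart from that share. Esr1, the oestrogen receptor, was detected in 9 cells of each set (13% and 12.7%). Of 8 oestrogen-responsive genes 0 passed the threshold (median 0.18), of which Nrip1 had a difference of 0.73. Of 22 genes of cholesterol synthesis 1 did, Ebp, the sterol isomerase that tamoxifen binds (-1.05), and Insig1, a brake on sterol synthesis, differed by -0.88. Of 6 targets of the aryl hydrocarbon receptor 0 did (median -0.08).

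The lists of keratinocyte markers, stress keratins and suprabasal genes held 10 of the 42 genes that were higher. Of 19 keratinocyte markers 4 were higher (Krt5, Sfn, Krt14 and Epcam) and 0 lower, with a median of 0.55 over all cells and 0.26 in the fibroblast range. Of 8 stress and simple epithelial keratins 3 were higher (Krt6a, Krt16 and Krt17) and all 8 were above 0, with a median of 0.73. Their median was 0.58 in the fibroblast range and -0.45 in the keratinocyte range. Of 12 suprabasal and cornified genes 3 were higher, Sprr2h, Sprr1b (1.23) and Krtdap (1.15), and 1 was lower, Krt10, the keratin of the first suprabasal layer (-1.08). Krt10 was detected in 59.4% of treated and 76.1% of untreated cells. Of 15 desmosome and adherens junction genes 0 passed (median 0.21), and of 14 fibroblast markers 0 did (median 0.18). These counts stand beside 0.379% of all genes higher and 1.97% lower.

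Most cell cycle genes had a lower mean in treated cells, though few passed the threshold, where 1.97% of all genes were lower by at least 1. Of 26 genes of mitosis 23 were below 0, with a median of -0.52, against 59.5% of all genes below 0 and a median of -0.08. Kif23, a kinesin of cytokinesis (-1.08), and Birc5, or survivin (-1.05), were lower by at least 1. Kif23 was detected in 58% of treated and 80.3% of untreated cells. Of 26 genes of DNA replication 20 were below 0, with a median of -0.34 and 0 past the threshold. Cdc45, a part of the replicative helicase, differed by -0.99 and Mcm2, another part of it, by 0.59. Mki67, the proliferation marker Ki-67, had a TPM of 0, 62.9 and 1199 in treated and of 0, 68.7 and 1261 in untreated cells, with a difference of 0.18. It was detected in 82.6% against 81.7% of cells. In the cells with 5500 to 7000 genes detected, 48 treated and 61 untreated, the median was -0.16 for mitosis and -0.01 for DNA replication. The median over all genes was -0.02 in those cells. The part of the number of genes per cell in the lower level of both lists was not tested.

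Stress and metabolic genes gave a mixed picture. Over all genes, 59.5% were below 0, 0.379% were higher by at least 1 and 1.97% lower. Of 18 genes of the unfolded protein and amino acid stress response 15 were below 0 (median -0.42) and 2 were past the threshold. These were Chac1, which degrades glutathione (-1.63, detected in 46.4% against 71.8% of cells), and Mthfd2, a mitochondrial folate enzyme (-1.13). Ddit3, a transcription factor of this response, differed by -0.86. Of 16 metallothionein and redox genes 12 were below 0 (median -0.31). Mt2 was detected in every cell, with a TPM of 2.79, 451 and 6719 in treated and of 5.02, 628 and 7519.8 in untreated cells, and differed by -1.03. Of 19 hypoxia and glycolysis genes 18 were above 0 (median 0.25) with 0 past the threshold. Their median was 0.36 in the fibroblast range and -0.28 in the keratinocyte range. Of the 19, Adm, a vasodilator peptide, differed by 0.79 (-0.13 with the log2 of the mean TPM) and Ldha, lactate dehydrogenase, by 0.36. Of 12 heat shock genes 0 passed (median -0.07).

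Among signalling genes single members passed the threshold, which 2.34% of all genes passed in either direction. Of 16 chemokines and cytokines Cxcl1, a neutrophil attractant, was lower (-1.47), with a TPM of 0, 30.3 and 2818 against 0, 136.6 and 2952. Il6 went the other way by 0.97, with 65.2% (52.8% to 76.3%) against 39.4% of cells (28% to 51.7%). Of 23 genes of TGF-beta and BMP signalling 1 was lower, Inhba, the activin A subunit (-1.33), with -0.81 in the fibroblast range and -4.48 in the keratinocyte range. Of 18 immediate early genes 1 was higher, Fos, a subunit of AP-1 (1.17), detected in 55.1% against 36.6% of cells, and the median of the list was 0.01. Of 13 targets of p53, Plk2, a polo-like kinase, was lower (-1.32), whereas Cdkn1a, the inhibitor of cyclin-dependent kinases, differed by 0.72. For Notch (9 genes, median -0.08), the IGF and EGF family (14 genes, 0.17), integrins (10 genes, -0.03), collagens (18 genes, 0.18), matrix enzymes (22 genes, -0.01) and actin and YAP targets (20 genes, -0.06) 0 members passed.

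The 9 transcription factors listed because the study names them were Smad3, Smad4, Kdm5b, E2f1, E2f4, Bcl3, Gata6, Foxm1 and Klf5. Of the 9, 0 passed the threshold, which 2.34% of all genes passed in either direction. The study named several of them from results on cells that include these, so they are not independent evidence. Their differences ran from -0.59 for Kdm5b, a histone demethylase, to 0.43 for Smad3, which carries TGF-beta signals to the nucleus. Smad4, the partner of Smad3, had a difference of -0.20 and Bcl3, a regulator of NF-kappaB, of 0.14.

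Few genes of protein synthesis and respiration passed the threshold, as did few of all genes (0.379% higher and 1.97% lower). Of 78 cytosolic ribosomal protein genes 0 passed (median -0.04) and of 74 nuclear genes of oxidative phosphorylation 0 did (median -0.15). Of 76 mitochondrial ribosomal protein genes 59 were below 0, with a median of -0.24, against 59.5% of all genes below 0 and a median of -0.08. Mrpl50 (-1.29) and Mrpl37 (-1.28) were past the threshold. With the log2 of the mean TPM the median of the 76 turned to 0.03 and the difference of Mrpl50 to 0.030. The median of these 76 was -0.08 in the fibroblast range and -1.28 in the keratinocyte range, which holds 12 treated and 8 untreated cells.

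**Figure D4:**
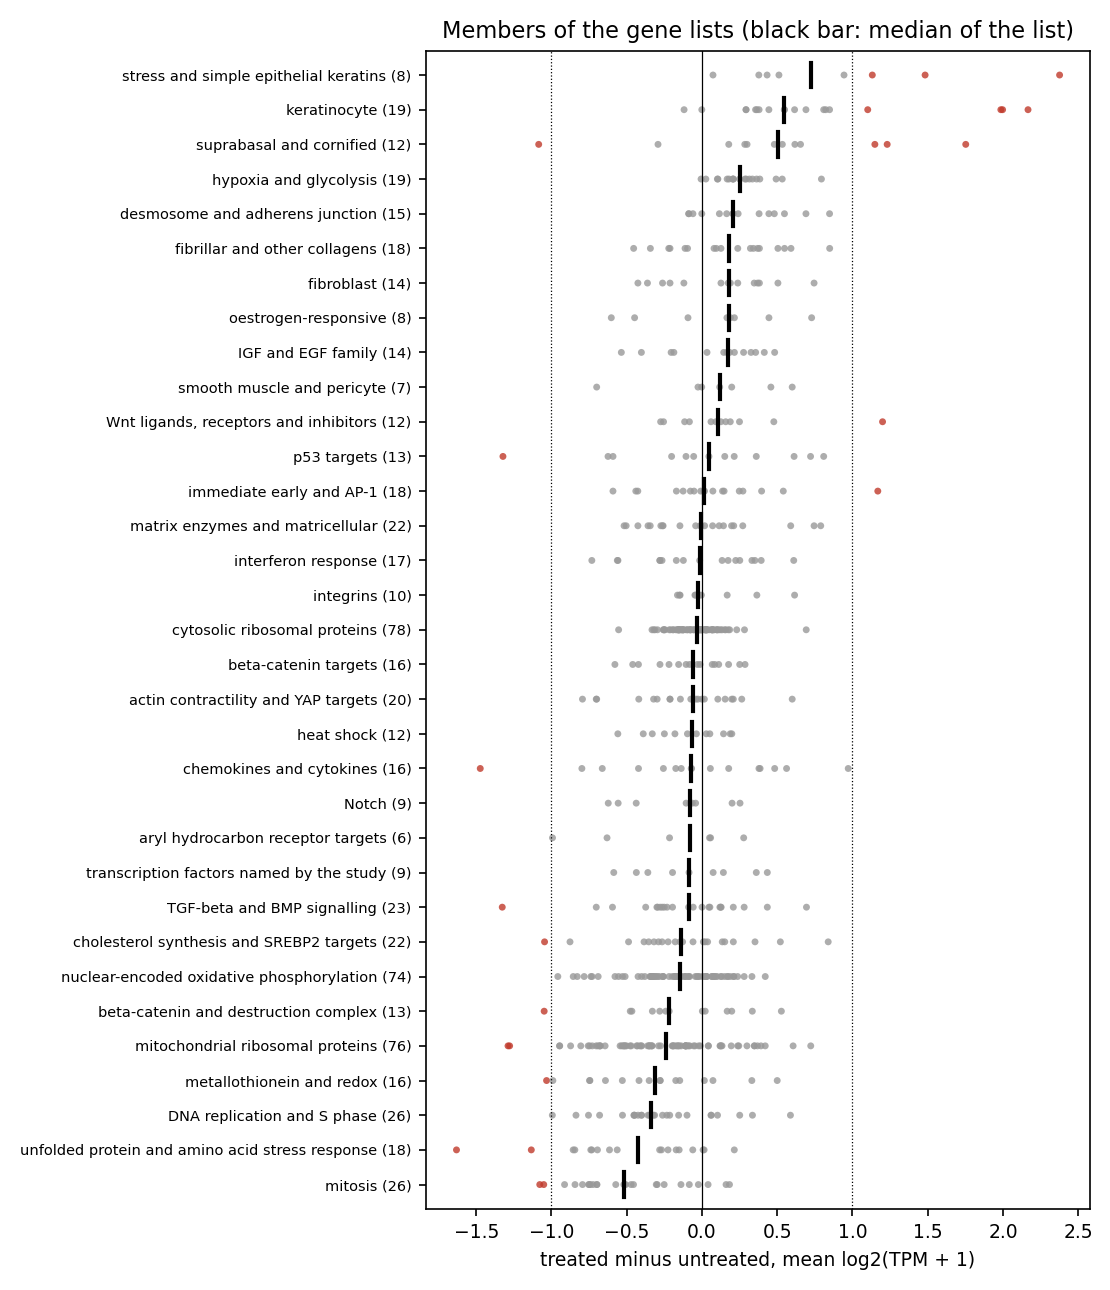
Treated minus untreated mean log2(TPM + 1) of the members of each gene list with 6 or more genes compared (number in brackets), with black bars at the list medians and red points for members past 1 in either direction. The lists of keratins and keratinocyte genes lie farthest to the right and the lists of mitosis and of the unfolded protein response farthest to the left, with medians of -0.52 and -0.42.

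The same contrast in the AG series, which shares no cells with GHA501A and has 64 treated and 66 untreated cells, is set beside it. There 331 of the 11090 genes (2.98%) were higher by at least 1 and 61 (0.550%) lower. Of the 42 genes higher in GHA501A, 27 were above 0 in AG and 3 were also past 1, Ly6d (1.99 and 1.53), Dync2li1 (1.39 and 1.73) and Mn1 (1.03 and 1.08). Of the 42, 0 were past 1 in the opposite direction. The keratins did not move in step, with AG differences of 0.15 for Krt14, 0.04 for Krt5 and -0.13 for Krt6a, in cells of which nearly all expressed them. Of the 218 genes lower in GHA501A, 74 were below 0 in AG and 2 were also past -1, Inhba (-1.33 and -1.31) and Csnk1g3. A further 21 were higher by at least 1 in AG, among them Mt2, Ebp, Mrpl50, Cdc25c, Dctpp1 and Gemin6. The median AG difference was 0.19 over the 42 genes, 0.19 over the 218 genes and 0.04 over all 11090. The share of all genes above 0 in AG was not counted, so the sign counts are a description only.

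List medians also took different values in the 2 series. The median of hypoxia and glycolysis genes was 0.25 in GHA501A and 0.68 in AG, that of cytosolic ribosomal proteins -0.04 and 0.48, that of oxidative phosphorylation -0.15 and 0.62, that of mitochondrial ribosomal proteins -0.24 and 0.43, that of mitosis -0.52 and -0.03, and that of the unfolded protein response -0.42 and 0.16. The difference between series was not tested, and the series also differ in the range in which most of their cells lie.

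**Figure D5:**
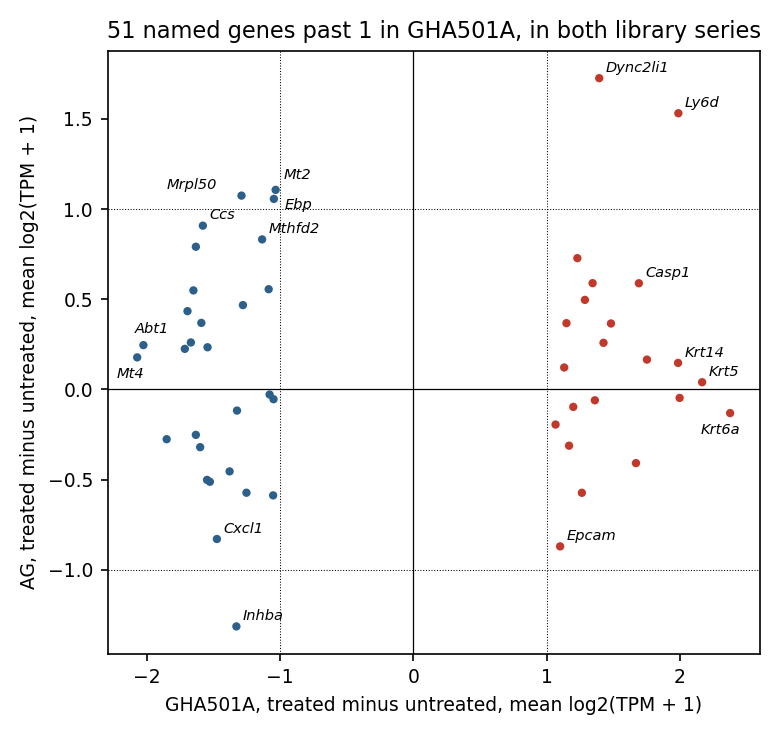
Treated minus untreated mean log2(TPM + 1) in GHA501A (horizontal) and in AG (vertical) for the 51 named genes past 1 in GHA501A. Ly6d and Dync2li1 lie past 1 in both series, Inhba past -1 in both, and Mt2, Ebp and Mrpl50 below -1 in GHA501A and above 1 in AG.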

How the data were processed

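The deposited values are TPM for 14145 genes in 294 columns, of which 16 carried no sample label and were not used. According to the methods, the authors processed reads with FastQC and Cutadapt, kept unique Tophat alignments to GRCm38, took gene counts from featureCounts and calculated TPM. Each column of values sums to 1000000, so depth is unknown. Doublet capture sites were excluded by imaging per the methods. From these values log2(TPM + 1) was averaged over cells (pandas 2.3.3 and numpy 2.4.6 in Python 3.11.15, intervals by scipy 1.17.1). Genes with TPM over 1 in more than 5 of the 140 cells were compared. Differences of at least 1, or of 20 percentage points in the share of cells, are listed as past the threshold. With 1 set per treatment no test was run. In AG, 8 cells with conflicting labels were left out.

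Named were the 15 largest differences in each direction (detected in at least 20% of cells of the higher set, no predicted genes), 5 by share in each direction, up to 5 of each of 37 lists, and the genes the study's question concerns. Mn1, Csnk1g3, Cdc25c, Dctpp1, Gemin6, Dmkn and Dsc3 were named after their values were seen. A gene that the rule on shares picked is not reported here. The list of mitochondrially encoded genes matched 0 genes. Members and lists were chosen with earlier results of these data known. Positions are from GENCODE M21. The steps were tested on simulated data. Alternatives were other pseudocounts, filters, scalings, detection thresholds and subsets of cells.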

Additional observations from a re-analysis of the deposited data

Results flagged for a closer look

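In the same contrast, treated minus untreated, 21 genes were lower by at least 1 in GHA501A and higher by at least 1 in AG. Of the genes named by the rule, Ebp differed by -1.05 in GHA501A and 1.06 in AG, Mt2 by -1.03 and 1.11, and Mrpl50 by -1.29 and 1.07. The difference between the series was not tested, since each holds 1 set of cells per treatment.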

How the results depend on the processing

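With 1 set of cells per treatment no set could be left out, and no paired analysis was possible because the labels give no replicate numbers shared between cultures. Of the 51 named genes past the threshold, 51 stayed past it with a pseudocount of 0.1 and with each cell scaled to the same upper quartile, 44 in cells with 5500 to 7000 genes, 41 in the fibroblast range, 50 without the 3 cells near the cut, 31 in the keratinocyte range and 26 with the log2 of the mean TPM. Of the genes compared, 2.16% were higher and 8.66% lower with a pseudocount of 0.1, and 8.59% and 4.7% with the log2 of the mean TPM, where the median over all genes was 0.083. In the keratinocyte range 8.23% were higher, 21.2% lower, 8.58% detected in a larger and 20.7% in a smaller share of treated cells, and the medians of genes per cell differed by -821.5. Cells with 5500 to 7000 genes gave 0.721% higher, 0.992% with a larger share and a difference of -83 genes per cell, and 29.9% of the genes past the threshold were then higher. Detection at a TPM over 0 or over 5 gave 1.06% or 0.162% of genes with a larger share, and over 5 a difference of -161 genes per cell. The signs of called genes turned with the log2 of the mean TPM for Zfp433 (0.70) and Mrpl50 (0.030), and in the keratinocyte range for Krt6a (-0.30), Sfn (-0.21), Tmprss11e (-1.07), Sgo2a (0.45), Epcam (-0.59), Krt17 (-0.37) and Fbxw11 (0.30). The difference in the share of cells in the keratinocyte range stayed between 4.67 and 6.16 percentage points under the 7 other settings. The cause of these changes was not tested. Leaving out cells near the cut was chosen after seeing the data. The precision of single low values is limited by a depth that TPM does not keep.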
